A study of Mus musculus with 6 samples.

Results

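Expression of the genes for voltage-gated sodium channels, voltage-gated calcium channels, and hyperpolarization-activated cyclic nucleotide-gated (HCN) channels was compared between chronic stroke infarcts and contralateral cortices of mice. Members were the protein-coding genes whose symbol begins with *Scn* followed by a number and a or b, with *Hcn* followed by a number, or with *Cacna*, *Cacnb*, or *Cacng*. This rule used names alone and found 44 of the 46078 genes in the count tables. Of these, 38 had enough reads to be tested.

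Bulk RNA-Seq covered 3 infarcts and 3 contralateral cortices from young adult wild type male C57BL/6J mice. The labels give an age of 3 months and a time point of 7 weeks after stroke. In all mice, stroke was produced by the distal hypoxic (DH) model, in which the distal middle cerebral artery is cauterized and the animal then breathes air low in oxygen. Infarcts were recognized by eye and cut out, and the matching region was taken from the other hemisphere of stroked mice, so that the contralateral cortex had also been exposed to hypoxia. The labels do not say which samples came from the same mouse or whether the numbered replicates were separate animals, so *p* values measure the spread between these samples only.

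Voltage-gated sodium channels open on depolarization and carry the rising phase of the action potential, whereas voltage-gated calcium channels turn depolarization into calcium entry that drives transmitter release, dendritic signaling, and gene expression. HCN channels open on hyperpolarization and carry a mixed cation current that sets resting excitability and rhythmic firing. Each sodium or calcium channel is built around 1 large pore-forming α subunit, with which smaller auxiliary subunits assemble to set trafficking and gating.

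Each library held between 11943570 and 19933962 reads counted on genes. Values are given as CPM, the count of a gene relative to the library total, scaled by the trimmed mean of M values (TMM). Markers of the 2 tissues differed widely. The summed expression of 10 pan-neuronal genes ran from 777 to 1991 CPM in infarcts against 9785 to 10690 CPM in contralateral cortices, and 10 of 10 were downregulated, with a median log2 fold change of −2.70. By contrast, 6 of 6 fibroblast, 7 of 7 lymphocyte, 5 of 6 microglia and macrophage, and 3 of 6 oligodendrocyte genes were upregulated. In bulk tissue, fewer cells of a type and less RNA per cell cannot be told apart, which holds for every difference described here.

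Most channel genes were expressed at far lower levels in infarcts. Of the 38 genes tested, 29 were downregulated and 1 was upregulated, as called by the quasi-likelihood test of edgeR at an adjusted *p* under 0.05 and a change of more than 2-fold. Across the 15554 genes tested in the whole transcriptome, 20.9% were downregulated and 25.7% were upregulated. The median log2 fold change of the channel genes was −2.11, against 0.03 for all genes. Expression in the 3 infarcts lay below that in the 3 contralateral cortices for 32 of 38 genes and above it for 1, compared with 34.7% and 37.6% of all genes tested. The potassium channel genes, which share the prefix *Kcn*, had a similar profile by count, with 57 of 79 downregulated, 10 upregulated, and a median of −2.40. The 2 channel groups were not tested against each other as sets, nor were the channel and pan-neuronal genes.

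**Figure D1:**
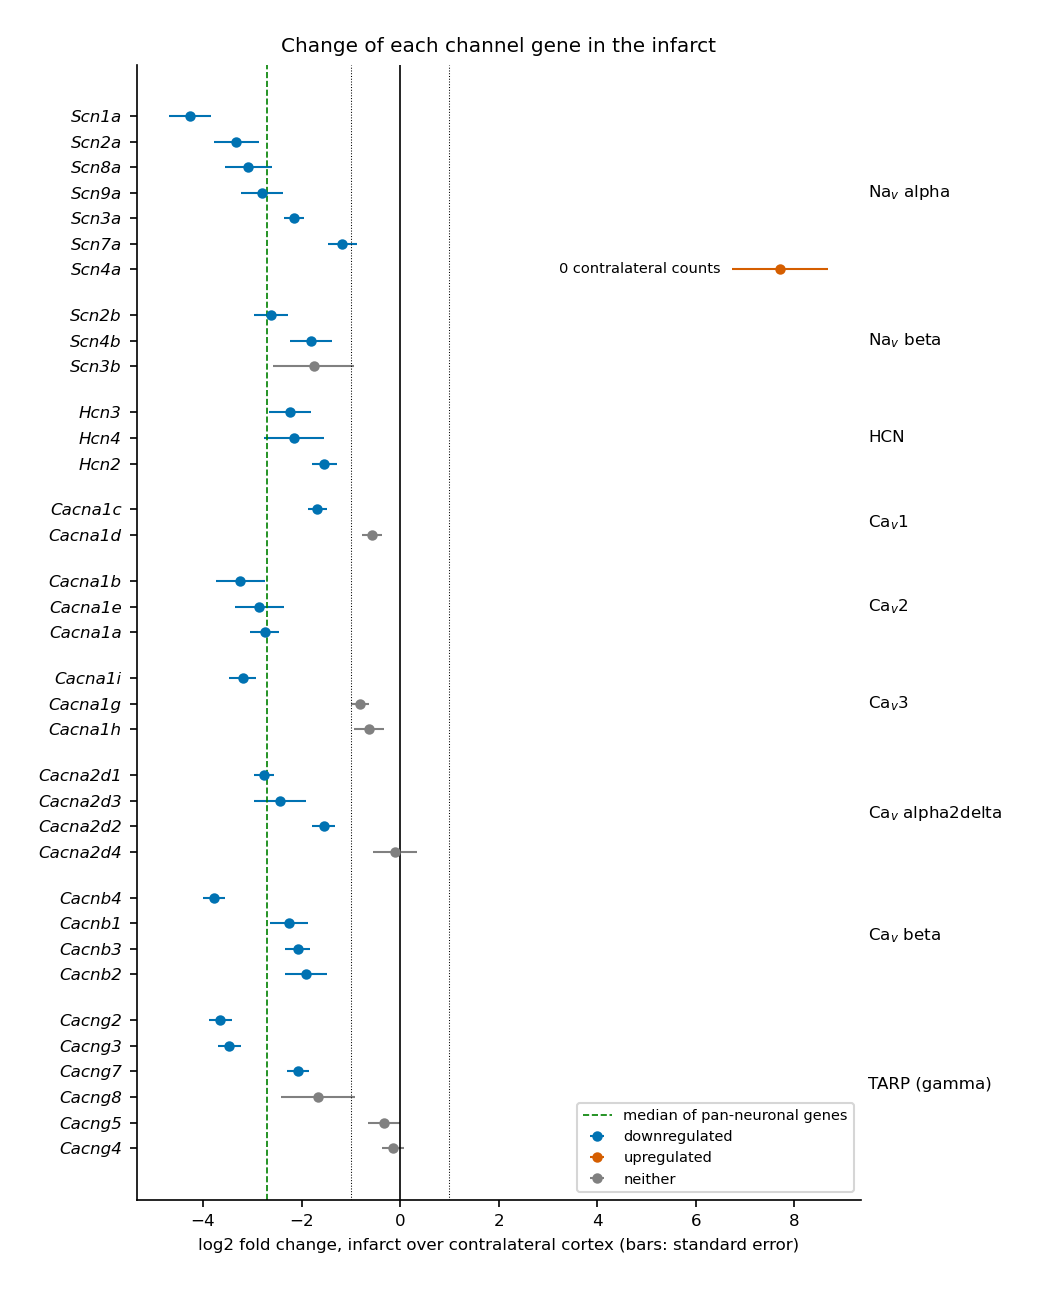
Log2 fold change, infarct over contralateral cortex, for 35 of the tested channel genes, in rows by subfamily, with horizontal bars for the standard error. Blue marks downregulated genes, orange the upregulated gene, and gray the 8 called neither way. Dotted lines mark a log2 fold change of 1 in either direction and the green dashed line marks the pan-neuronal median of −2.70. The range runs from −4.26 for *Scn1a* to *Scn4a* on the far right, whose position depends on the fit because it had 0 counts in contralateral cortices.

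Of the 8 sodium channel α genes tested, 7 were downregulated and 1 was upregulated. *Scn1a*, the main sodium channel of fast-spiking inhibitory interneurons, had 24.6, 13.1, and 38.7 CPM in infarcts 1, 2, and 3 and 356, 577, and 535 CPM in contralateral cortices 1, 2, and 3. The highest infarct was thus well below the lowest contralateral cortex. Its log2 fold change of −4.26 (SE 0.42, adjusted *p* = 6.21e-05 by edgeR) was the lowest among the 38 genes tested and equals a 19.2-fold decrease.

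*Scn2a*, the channel of excitatory neurons early in the axon initial segment, measured 48.3, 61.6, and 158 CPM against 818, 982, and 880 CPM. *Scn8a*, which carries most of the sodium current at mature initial segments and nodes of Ranvier, measured 44.5, 42.3, and 136 CPM against 575, 685, and 625 CPM. For both genes infarct 3 kept the most expression, yet the groups did not overlap. Their log2 fold changes were −3.32 (SE 0.46) and −3.08 (SE 0.48), with adjusted *p* values of 4.42e-04 and 0.00103 by edgeR.

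*Scn3a*, which is most abundant before birth, had a smaller decrease. It measured 14.3, 18.0, and 23.1 CPM in infarcts against 88.3, 84.7, and 74.2 CPM, a log2 fold change of −2.16 (SE 0.20, adjusted *p* = 9.84e-06). *Scn1a*, *Scn2a*, and *Scn3a* lie in 1 cluster on chromosome 2 with *Scn9a* and *Scn7a*, between positions 65457118 and 66784914 of GRCm38. The log2 fold changes of the 5 neighbors spread from −4.26 to −1.17.

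Other α subunits were scarce in cortex. *Scn9a*, best known from sensory neurons, had 4, 12, and 22 counts in infarcts against 135, 99, and 63 and was downregulated (log2 fold change −2.80, SE 0.43). *Scn7a*, an atypical sodium channel linked to sensing of sodium levels, had 16.7, 6.76, and 11.3 CPM against 22.8, 28.6, and 27.0 CPM. Its log2 fold change was −1.17 (SE 0.29), the smallest among the downregulated genes, and came to −0.88 without infarct 2, short of the 2-fold threshold.

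*Scn4a*, the α subunit of adult skeletal muscle, was the 1 channel gene that was upregulated. Infarcts 1, 2, and 3 held 31, 24, and 18 of its reads, whereas contralateral cortices held 0, 0, and 0 among 48487831 counts in all. In scaled units the infarcts had 2.47, 1.76, and 1.23 CPM. The edgeR test of *Scn4a* gave an adjusted *p* of 2.43e-04, and the gene had enough reads to be tested through the infarcts alone. Setting each contralateral library at 3 counts, the limit that a count of 0 allows, the infarct mean of *Scn4a* was at least 8.68-fold higher. Leaving out infarct 1, 2, or 3 gave a bound of 7.13, 8.82, or 10.1. These bounds cover counting error in the contralateral libraries only and take the infarct mean as exact. Expression was low in absolute terms, at 0.258 CPM per kilobase of exon in infarcts, which placed *Scn4a* 34th of the 44 genes there.

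*Scn4a* (ENSMUSG00000001027) occupies chr11:106318592-106353288 on the minus strand of GRCm38. The nearest gene past its 3′ end, at 3829 bases, is *Cd79b*, which encodes a signaling chain of the B cell receptor. *Cd79b* is on the same strand, so that it is transcribed away from *Scn4a*. *Cd79b* had 136, 56, and 76 counts in infarcts against 3, 0, and 0, and was also upregulated (log2 fold change 6.51, SE 0.76, adjusted *p* = 5.51e-05). Infarct 1 was the highest of the infarcts for both genes. The neighbor on the other side, *Prr29*, had at most 2 counts in any library.

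Skeletal muscle markers were mixed. The summed expression of the 8 listed genes was 1.75 to 4.85 CPM in infarcts and 17.5 to 18.6 CPM in contralateral cortices. The 2 that could be tested, *Acta1* and *Ryr1*, were downregulated, with log2 fold changes of −4.25 and −1.51. The other 6 had few reads. The fast myosin gene *Myh2* had 0 counts in the 3 infarcts against 13, 6, and 20, and the creatine kinase gene *Ckm* had at most 2 counts in any library. Values were higher in infarcts for *Mylpf*, with 7, 5, and 8 counts against 0, 1, and 0. *Tnnt3* had a higher mean in infarcts, with 1, 14, and 7 counts against 2, 0, and 1, but its groups overlapped. The lymphocyte markers summed to 103 to 308 CPM in infarcts and at most 0.554 CPM in contralateral cortices, with infarct 1 again the highest. Infarct 1 was also highest for the summed microglia and macrophage, endothelium, and smooth muscle and pericyte markers. The oligodendrocyte precursor sum was highest in infarct 1 as well, at 567, 436, and 420 CPM in infarcts 1, 2, and 3. Most of that sum was *Pdgfra*, also on the fibroblast list, at 497, 355, and 298 CPM. The other precursor genes, *Cspg4*, *Olig1*, *Olig2*, *Gpr17*, and *Neu4*, were each highest in infarct 3. Infarct 2 was highest for the fibroblast markers, and infarct 3 for the astrocyte and oligodendrocyte markers. Whether lymphocytes or any other cell type had a part in the *Scn4a* counts was not tested.

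The sequences upstream of *Scn4a* and *Scn1a* are shown because these genes stood at opposite ends of the range. Each is the 250 bases before a RefSeq start (GRCm38.p6), read 5′ to 3′ on the minus strand. The *Scn4a* window is chr11:106349391-106349640, inside the annotated gene span because RefSeq places a start further in, and the *Scn1a* window is chr2:66440838-66441087. Capitals mark matches to the E box motif CANNTG.
Scn4a: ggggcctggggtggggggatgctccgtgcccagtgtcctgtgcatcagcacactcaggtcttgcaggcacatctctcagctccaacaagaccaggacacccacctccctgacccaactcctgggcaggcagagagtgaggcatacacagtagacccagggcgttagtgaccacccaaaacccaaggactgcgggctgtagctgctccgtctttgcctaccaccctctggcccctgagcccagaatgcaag
Scn1a: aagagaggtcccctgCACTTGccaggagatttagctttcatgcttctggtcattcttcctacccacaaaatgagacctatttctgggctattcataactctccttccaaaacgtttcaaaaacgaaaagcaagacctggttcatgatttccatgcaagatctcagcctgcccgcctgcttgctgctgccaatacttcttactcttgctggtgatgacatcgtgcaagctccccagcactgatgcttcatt
The GC content was 61.6% for *Scn4a* and 46.8% for *Scn1a*. Searching both strands, the *Scn1a* window held 1 E box, and neither window held a GC box, which is GGGCGG. The TATA motif, searched for as TATAAA, was absent from both as well. The cyclic AMP response element (TGACGTCA) had no match in either.

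Windows of this kind were found in RefSeq for 32 of the 44 genes, 43 windows in all. Of these, 39.5% held a GC box, 62.8% an E box, and 4.65% a TATA motif, against 32.7%, 66.2%, and 12.4% of all 32851 windows. The cyclic AMP response element was in 0% of channel windows and 1.55% of all windows. A match or its absence describes only the letters of these windows.

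The sodium channel β subunits are single-pass membrane proteins that adjust gating and hold the channels in place. *Scn2b* measured 28.6, 44.1, and 78.6 CPM in infarcts against 288, 300, and 348 CPM in contralateral cortices and was downregulated (log2 fold change −2.63, SE 0.35, adjusted *p* = 2.55e-04). *Scn4b*, whose product can give rise to resurgent current, measured 8.28, 28.9, and 14.8 CPM in infarcts against a contralateral mean of 60.8 ± 13.9 CPM (SD, *n* = 3), with no overlap. It was downregulated as well (log2 fold change −1.81, SE 0.43, adjusted *p* = 0.00775), and infarct 2 was the highest of its infarcts.

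*Scn3b* was not called. It had 11.2, 22.5, and 106 CPM in infarcts 1, 2, and 3 against 168, 149, and 157 CPM. The 3 infarcts lay below the contralateral cortices but differed 9.46-fold among themselves. The log2 fold change of −1.76 had an SE of 0.83 and an adjusted *p* of 0.114. Without infarct 3, it was −3.21 (adjusted *p* = 1.5e-06), and voom called the gene with all libraries (−2.37, adjusted *p* = 0.00591).

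**Figure D2:**
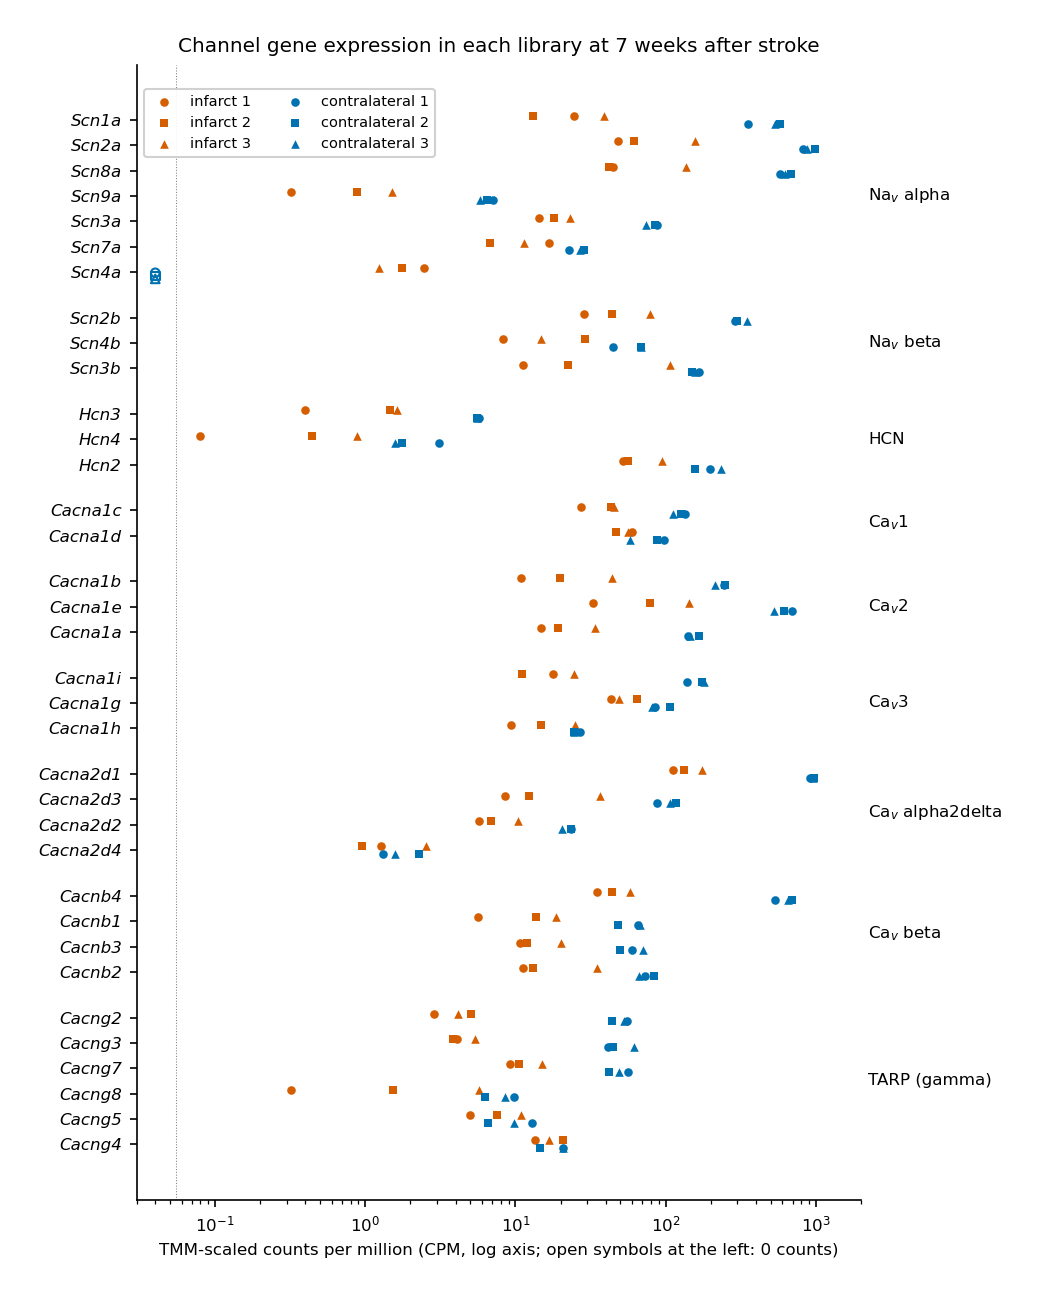
TMM-scaled CPM, on a log axis, of 35 of the tested channel genes in each of the 6 libraries, in rows by subfamily. Orange symbols are infarcts and blue symbols are contralateral cortices, with 1 symbol shape per replicate number, and open symbols at the left edge are libraries with 0 counts. Blue lies to the right of orange without overlap in 29 rows, and infarct 3 (orange triangles) is often the rightmost of the infarcts, as for *Scn3b*.

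*Hcn2*, *Hcn3*, and *Hcn4* were downregulated. *Hcn2*, a subunit with slow activation and strong response to cyclic AMP, was the most abundant per kilobase, with 52.0, 55.9, and 94.0 CPM in infarcts against 198, 157, and 234 CPM. Its log2 fold change was −1.54 (SE 0.25, adjusted *p* = 5.42e-04). The highest infarct lay below the lowest contralateral cortex.

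*Hcn3* and *Hcn4* were scarce. *Hcn3* was at 0.398, 1.47, and 1.64 CPM in infarcts and between 5.53 and 5.75 CPM in contralateral cortices (log2 fold change −2.24, SE 0.42), and 17.1% of its exon length overlaps *Pklr* on the other strand. *Hcn4*, the pacemaker subunit of heart and thalamus, had 1, 6, and 13 counts in infarcts against 59, 27, and 17. Its log2 fold change was −2.15 (SE 0.61, adjusted *p* = 0.0112), and without contralateral cortex 1 it was −1.79 with an adjusted *p* of 0.0605.

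Among calcium channel pore subunits, the Cav2 family, which triggers transmitter release at presynaptic terminals, was downregulated in 3 of 3 genes. *Cacna1b*, the N-type channel, measured 10.8, 19.8, and 44.3 CPM in infarcts against 246, 250, and 213 CPM (log2 fold change −3.24, SE 0.49, adjusted *p* = 8.90e-04). *Cacna1e*, the R-type channel, had 32.7, 78.6, and 143 CPM against 692, 617, and 530 CPM and changed by −2.86 (SE 0.50). *Cacna1a*, the P/Q-type channel, had 14.7, 19.1, and 33.8 CPM against 142, 168, and 146 CPM and changed by −2.75 (SE 0.29). In each, infarct 1 was lowest and infarct 3 highest, with no overlap between the groups.

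The L-type (Cav1) and T-type (Cav3) genes were uneven. *Cacna1c*, the main L-type channel of brain, heart, and smooth muscle, had 27.4, 43.4, and 45.5 CPM in infarcts against 135, 126, and 111 CPM and was downregulated (log2 fold change −1.68, SE 0.20, adjusted *p* = 6.00e-05). *Cacna1d*, an L-type channel that opens at more negative voltages, had 59.9, 46.9, and 56.1 CPM against 97.2, 87.6, and 57.9 CPM. For *Cacna1d* the groups overlapped and the log2 fold change was −0.58 (SE 0.20, adjusted *p* = 0.0299), which did not reach the 2-fold threshold. Of its exon length, 4.67% overlaps *Chdh* on the other strand.

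T-type channels open near rest and support burst firing. *Cacna1i* measured 17.8, 11.1, and 24.7 CPM in infarcts against 138, 174, and 181 CPM and was downregulated (log2 fold change −3.20, SE 0.28, adjusted *p* = 1.33e-05). *Cacna1g* had 43.3, 64.1, and 48.7 CPM against 85.5, 108, and 81.5 CPM, without overlap, but its log2 fold change of −0.82 (SE 0.19, adjusted *p* = 0.00332) was under 2-fold. *Cacna1h* had 9.32, 14.9, and 24.8 CPM against 27.0, 24.7, and 24.7 CPM, a log2 fold change of −0.64 (SE 0.31, adjusted *p* = 0.0971). Infarct 3 stood within the contralateral range of *Cacna1h*, and without it the log2 fold change was −1.06 and passed the test (adjusted *p* = 0.00172).

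The α2δ subunits, extracellular proteins that carry channels to the surface and bind gabapentinoid drugs in the case of *Cacna2d1* and *Cacna2d2*, were downregulated in 3 of 4 genes. *Cacna2d1*, with the highest expression per kilobase in contralateral cortices among the 44 genes, had 111, 133, and 176 CPM in infarcts against 911, 978, and 959 CPM. Its log2 fold change was −2.76 (SE 0.20, adjusted *p* = 2.37e-06). *Cacna2d3* and *Cacna2d2* changed by −2.43 (SE 0.53) and −1.55 (SE 0.23). *Cacna2d4*, known for its role in photoreceptor synapses, was low and overlapping, at 1.27, 0.955, and 2.53 CPM against 1.31, 2.28, and 1.57 CPM (log2 fold change −0.10, SE 0.45). The sign of that difference turned when infarct 1, infarct 2, or contralateral cortex 2 was left out or when libraries were scaled by their totals.

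The cytoplasmic β subunits, which chaperone the pore to the membrane, were downregulated in 4 of 4 genes. *Cacnb4* measured 35.0, 44.0, and 58.4 CPM in infarcts against 531, 698, and 655 CPM. Its infarct values spanned 1.67-fold and its log2 fold change of −3.78 (SE 0.23, adjusted *p* = 8.19e-07) was the lowest after *Scn1a*. Of the *Cacnb4* exon length, 16% overlaps A430018G15Rik on the other strand. *Cacnb1*, *Cacnb3*, and *Cacnb2* changed by −2.25 (SE 0.39), −2.08 (SE 0.25), and −1.91 (SE 0.42).

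The *Cacng* genes of the brain encode transmembrane AMPA receptor regulatory proteins (TARPs), which are named for the calcium channel γ subunit but mainly escort AMPA-type glutamate receptors and slow their closing. *Cacng2* (stargazin) had 2.87, 5.07, and 4.16 CPM in infarcts against 55.4, 43.8, and 53.0 CPM, and *Cacng3* had 4.06, 3.82, and 5.39 CPM against 41.3, 44.5, and 61.5 CPM. The infarct values of both stayed within a 1.77-fold range, far under the contralateral values. Their log2 fold changes were −3.65 (SE 0.23) and −3.46 (SE 0.23), with adjusted *p* values of 1.04e-06 and 1.37e-06 by edgeR. *Cacng7* was downregulated by a smaller amount (log2 fold change −2.07, SE 0.22).

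*Cacng4* and *Cacng5* were not called, and their groups overlapped. *Cacng4*, a TARP also found in glia, had 13.5, 20.6, and 16.8 CPM in infarcts against 20.8, 14.7, and 20.8 CPM. The log2 fold change was −0.14 (SE 0.22, adjusted *p* = 0.583), and its sign turned without infarct 1 and under scaling by library totals. *Cacng5*, at 5.02, 7.49, and 10.9 CPM against 12.9, 6.58, and 9.78 CPM, changed by −0.32 (SE 0.33, adjusted *p* = 0.408). *Cacng8*, the main TARP of hippocampal neurons, had 0.319, 1.54, and 5.73 CPM against 9.82, 6.25, and 8.49 CPM. It resembled *Scn3b* in that infarct 3 lay 18.0-fold above infarct 1, and the log2 fold change of −1.67 (SE 0.75) had an adjusted *p* of 0.0878. Without infarct 3 it was −3.09 (adjusted *p* = 2.16e-04), and voom gave −2.38 (adjusted *p* = 0.0121).

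The 6 genes that remain fell under the filter on low counts. The retinal and skeletal muscle L-type genes *Cacna1f* and *Cacna1s* had 1, 2, and 1 and 0, 4, and 1 counts in infarcts against 9, 3, and 3 and 12, 11, and 7. The nociceptor sodium channel gene *Scn10a* had 0, 0, and 1 counts against 10, 12, and 5, and it was called downregulated when the filter on low counts was left off (adjusted *p* = 0.00283), as was *Cacna1s* (adjusted *p* = 0.0312). *Scn11a*, another sodium channel of nociceptors, had 1, 3, and 2 against 4, 1, and 1. The muscle γ subunit gene *Cacng1* had at most 1 count in any library, and *Cacng6* had 2, 0, and 4 against 11, 5, and 4.

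The amount of expression left in infarcts differed by subfamily. Summed over the 44 genes, infarcts 1, 2, and 3 had 715, 899, and 1535 CPM, and contralateral cortices had 6201, 6886, and 6610 CPM, so that infarcts averaged 16.0% of the contralateral mean. By the same measure, sodium channel α subunits were at 10.5%, β subunits of calcium channels at 11.2%, Cav2 at 13.2%, and α2δ at 15.7%. Sodium channel β subunits were at 22.1%, TARPs at 25.5%, HCN at 27.9%, Cav3 at 30.7%, and Cav1 at 45.3%. In these sums, abundant members weigh the most, and no test was made between subfamilies.

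Infarct 3 retained the most expression in 29 of 38 genes (76.3%), and infarct 1 the least in 28. Of all genes tested, infarct 3 was the highest infarct in 35.2%. The summed channel expression of infarct 3 was 23.4% of the contralateral mean, compared with 10.9% and 13.7% in infarcts 1 and 2. The pan-neuronal genes had the same order, with geometric means at 8.72%, 12.3%, and 22.6% of the contralateral mean in infarcts 1, 2, and 3. Infarct 3 was the highest infarct in 24 of the 29 downregulated channel genes (82.8%) and in 75.5% of all downregulated genes. How much neuron-containing tissue each dissected infarct included was not tested.

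**Figure D3:**
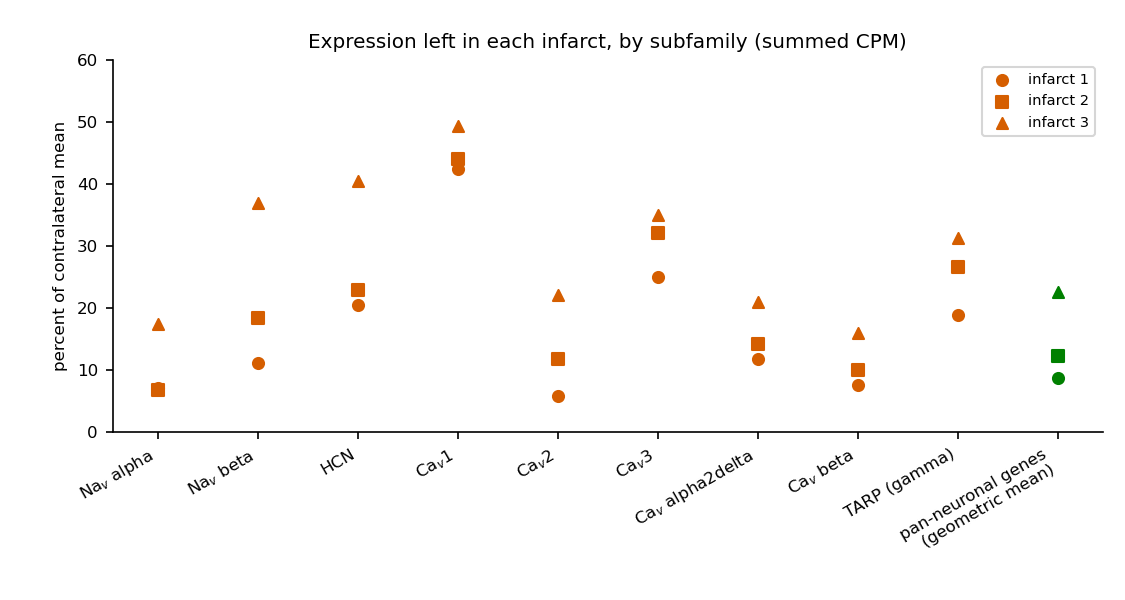
Expression in each infarct as a percent of the contralateral mean, summed in CPM over the members of each subfamily, with 1 symbol per infarct. The last column gives the geometric mean of 10 pan-neuronal genes in green. Infarct 3 is highest in each column, and Cav1 stands highest of the subfamilies, at 42.4%, 44.1%, and 49.4% in infarcts 1, 2, and 3.

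The mix of subunits within families also differed between tissues. Among *Scn1a*, *Scn2a*, *Scn3a*, and *Scn8a*, taken as CPM per kilobase of exon, *Scn1a* made up 15.7% ± 5.68 in infarcts and 27.1% ± 3.67 in contralateral cortices (SD, *n* = 3 each). *Scn3a* made up 10.9% ± 3.63 and 4.18% ± 0.778, whereas the share of *Scn2a* was 44.2% ± 5.39 and 43.8% ± 1.87 and overlapped. The *Scn1a* share of infarct 1, at 22.2%, lay just under the lowest contralateral share of 22.9%.

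Among the 5 Cav1 and Cav3 genes, *Cacna1i* made up 41.1% ± 5.86 of contralateral and 12.2% ± 4.05 of infarct expression. *Cacna1d* made up 15.8% ± 3.89 and 29.5% ± 5.95, and *Cacna1g* 22.2% ± 1.88 and 34.9% ± 7.12. Among the β genes, the *Cacnb4* share was 67.1% ± 4.92 in contralateral cortices and 40.6% ± 4.67 in infarcts. Among TARPs, *Cacng2* made up 15.8% ± 0.679 of contralateral and 4.96% ± 1.06 of infarct expression, and *Cacng3* 30.4% ± 5.48 and 10.9% ± 2.18. *Cacng4* made up 8.96% ± 0.646 of contralateral and 32.6% ± 6.89 of infarct TARP expression. The groups did not overlap for these shares other than that of *Scn2a*. They were not tested.

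**Figure D4:**
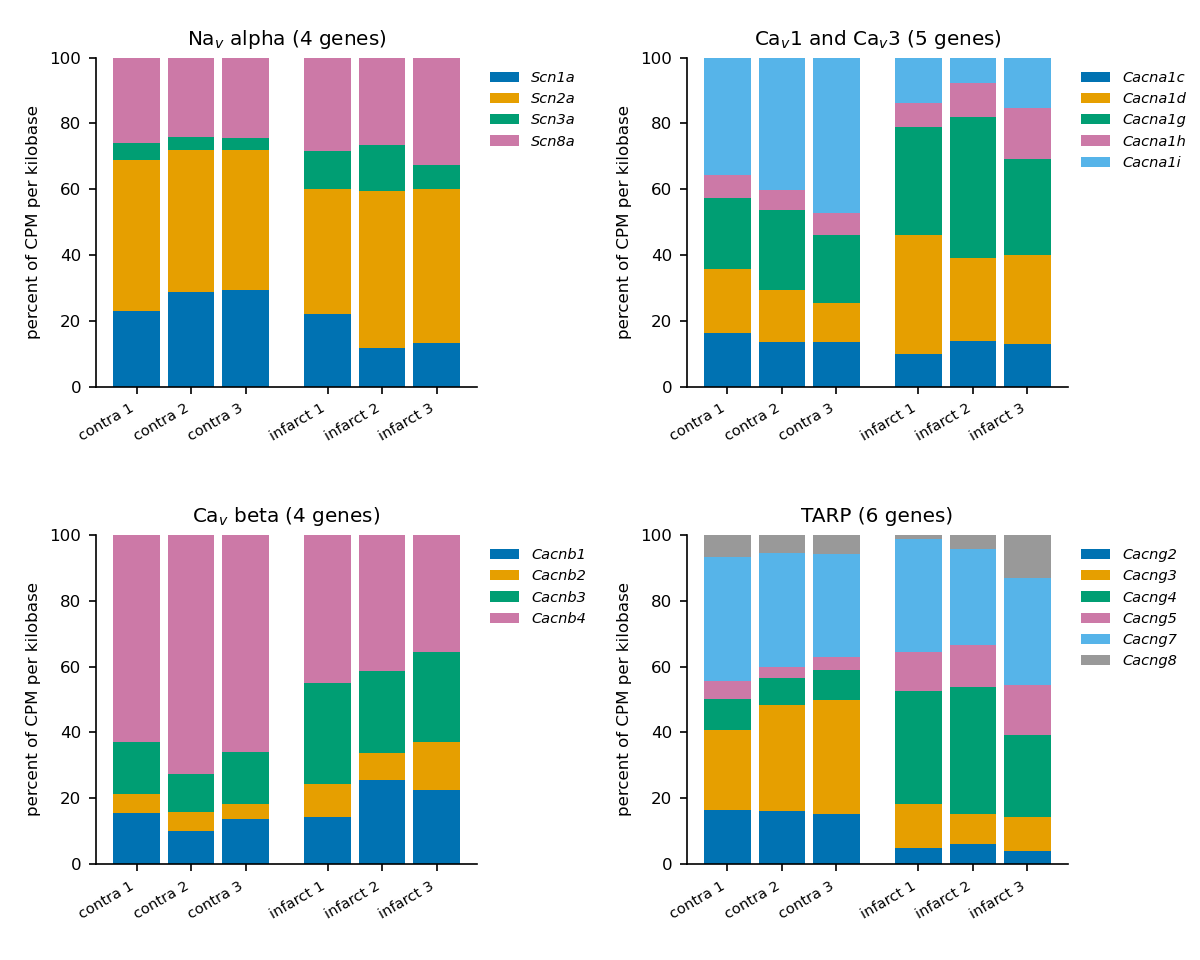
Share of each gene in the CPM per kilobase of its family, in percent, as stacked bars with 1 bar per library, contralateral cortices at the left and infarcts at the right of each panel. The panels show 4 sodium channel α genes, 5 Cav1 and Cav3 genes, 4 calcium channel β genes, and 6 TARP genes. *Cacna1i*, *Cacnb4*, *Cacng2*, and *Cacng3* take smaller parts of the infarct bars, and *Scn3a*, *Cacna1d*, and *Cacng4* larger parts.

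To set channel genes beside the neuronal markers in each library, CPM was divided by the geometric mean of the 10 pan-neuronal genes. This is a description without a test, since the divisor is itself far lower in infarcts. By this measure 89.5% of all genes tested were higher in infarcts without overlap and 1.25% were lower. Of the 38 genes, 23 had mean ratios in infarcts between 0.5 and 2 times those in contralateral cortices. Ratios were lower in infarcts without overlap for 4 genes, *Scn1a* (0.376 times), *Cacnb4* (0.533), *Cacng2* (0.608), and *Scn2a* (0.644). They were higher without overlap for 17 of 38 genes, a smaller share than that of all genes, among them *Cacng4* (7.09), *Cacna2d4* (6.33), *Cacng5* (5.74), *Cacna1d* (5.32), *Cacna1g* (4.40), *Cacna1h* (4.39), and *Scn7a* (3.74). Glial and vascular markers were mixed. Of 6 astrocyte genes, 2 were upregulated and 1 was downregulated. Upregulated genes made up 1 of 6 for oligodendrocyte precursors, 3 of 6 for oligodendrocytes, and 5 of 6 for microglia and macrophages. They made up 3 of 6 for endothelium and 5 of 7 tested for smooth muscle and pericytes. The part of non-neuronal cells in the ratios to pan-neuronal genes was not tested.

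Genes of channel-binding proteins were compared by count, together with genes of AMPA receptors, the sodium leak channel, and calcium store and entry channels. All are called partner genes here, though some encode separate channels. Of the 47 tested partner genes, 30 were downregulated and 7 upregulated, with a median log2 fold change of −1.80. Across all genes tested, 20.9% were downregulated and 25.7% upregulated. The axon initial segment list had 8 of 10 downregulated, including the sodium channel binding factor *Fgf12* (−3.58, SE 0.23) and the scaffold genes *Ank3* (−2.67, SE 0.32) and *Sptbn4* (−2.56, SE 0.54). *Nfasc*, which is also made by oligodendrocytes, had a log2 fold change of −0.56 (adjusted *p* = 0.0979). The HCN trafficking partner *Pex5l* (−1.98, SE 0.40) and 4 of 4 tested genes of the sodium leak channel complex were downregulated.

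The 7 upregulated partners were calcium genes. *Gem* and *Rrad*, small GTPases that bind calcium channel β subunits and inhibit the current, had log2 fold changes of 2.86 (SE 0.24) and 3.52 (SE 0.66). *Gem* had 121, 132, and 137 counts in infarcts against 22, 22, and 15, and *Rrad* had 18, 23, and 13 against 3, 2, and 0. *Cachd1*, which resembles the α2δ subunits, changed by 1.03 (SE 0.21). The others were calcium store and entry genes, *Itpr3* (2.35, SE 0.19), *Orai1* (2.10, SE 0.29), *Orai3* (1.36, SE 0.18), and *Itpr2* (1.18, SE 0.18). On the same list *Ryr2* (−3.11, SE 0.45), *Itpr1* (−2.28, SE 0.21), and *Ryr1* were downregulated.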

How the data were processed

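Libraries came from 3 infarcts and 3 contralateral cortices. Per the methods of the study and the submitters' processing notes, the authors prepared stranded mRNA libraries, trimmed reads with Trimmomatic 0.32, aligned them to GRCm38 with STAR 2.5.2b, and deposited raw counts per Ensembl gene from HTSeq, not normalized. The version, annotation, and strand setting of HTSeq are not given in the sources used here, so exons shared with an opposite-strand gene may hold reads of both. The 5 entries of each file that name no gene were left out of library sizes and tests, and 65.7% to 73.4% of tallied reads were on genes. Symbols and positions came from GENCODE release M21, which lists 45229 of the identifiers. The other 849 entered the tests without a symbol.

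Counts were filtered with filterByExpr, scaled with TMM, and tested with the quasi-likelihood method of edgeR 4.0.16 (robust glmQLFit, glmQLFTest) in R 4.3.3, with region as the only term. *p* values were adjusted by Benjamini-Hochberg over the 15554 genes tested, and calls needed an adjusted *p* under 0.05 and a log2 fold change beyond 1 in size. The biological coefficient of variation was 0.220. Standard errors were derived from the test, as the size of the log2 fold change divided by the square root of its F statistic. CPM errors are SDs, and CPM per kilobase used the union of annotated exons. The fit was tested on simulated data. Tables and plots were made with Python 3.11.15, pandas 2.3.3, and matplotlib 3.10.9. Alternatives were DESeq2 1.42.0, voom of limma 3.58.1, other scalings and filters, a test against a fold change of 2, thinning to the smallest library, a replicate block, and leaving out each library.

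Every channel gene is covered by the naming rule, though some that enter the counts and sums are not reported here by name, and partner and marker lists are given by count, with values where a result turns on them. *Cd79b*, *Prr29*, and the genes sharing exons with members were named after their values were seen, as neighbors. The members and lists were chosen with earlier results of these data known. Of 53 listed partner genes, 50 were in the annotation used. Other marker lists were excitatory neuron (5 of 6 downregulated) and inhibitory neuron (6 of 6 downregulated). Glial lists were astrocyte (2 upregulated and 1 downregulated of 6) and oligodendrocyte precursor (1 of 6 upregulated). Vascular lists were endothelium (3 of 6 upregulated) and smooth muscle and pericyte (5 of 7 tested upregulated). Schwann cell (0 of 4 tested called), cardiac muscle (0 of 1 tested called), and peripheral sensory neuron (0 tested) lists were also used. Further partner lists were calcium channel modulators (3 upregulated and 8 downregulated of 12 tested) and AMPA receptor auxiliary subunits together with the receptor genes *Gria1* and *Gria2* (5 of 8 downregulated). The last were HCN partners (3 of 3 tested downregulated) and calcium store channels (4 upregulated and 3 downregulated of 11).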

Additional observations from a re-analysis of the deposited data

How the results depend on the processing

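The upregulated count of 1 was the same under every alternative but 2. Scaling by pan-neuronal genes called 14 genes higher and 1 lower, which means relative to those genes and not upregulated or downregulated. With a minimum of 10 counts in every library, the upregulated count was 0 because *Scn4a* could not be tested. Leaving out each library kept it at 1. Apart from the pan-neuronal scaling, the downregulated count of 29 ranged from 25 (a minimum of 10 counts, or a test against a fold change of 2) to 31 (voom, or no fold threshold). It ranged from 27 to 32 when single libraries were left out. Scaling by library totals shifted the median over all genes from 0.03 to 0.23 (log2) and gave 28.

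Replicate numbers are shared between regions in the labels, but deviations of same-numbered samples correlated at −0.190, 0.101, and 0.0011, which does not establish a pairing and does not show that the samples came from different mice. With the replicate block, 30 genes were downregulated and 1 was upregulated, and *Scn3b* was called (−2.40, adjusted *p* = 0.0442). No infarct correlated best with the contralateral cortex of its own number, whereas contralateral cortex 2 correlated best with infarct 2.

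The sign of 2 genes turned. The log2 fold change of *Cacng4* was 0.063 under library totals and ranged from −0.30 to 0.019 when single libraries were left out. That of *Cacna2d4* was 0.10 under library totals and ranged from −0.61 to 0.17. Calls were also lost for *Scn4b* without the low-count filter, for *Scn7a* under library totals (−0.98), and for *Hcn4*, *Scn7a*, and *Scn4b* in the test against a fold change of 2. Voom added *Scn3b* (−2.37) and *Cacng8* (−2.38). A scaling by pan-neuronal genes, tried after seeing the data, called 14 channel genes higher and 1 lower relative to those genes. It called 87.4% of all genes higher and was not used for calls. The low-count filter left out 6 genes. Tested without it, *Scn10a* (−4.17) and *Cacna1s* (−2.35) were downregulated, and DESeq2 called *Scn10a* (−4.48).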
